A study of Arabidopsis thaliana with 12 samples.

Results

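Seeds of pil5 given far-red light alone were compared with wild-type seeds given far-red and then red light. The comparison took 6 of the 12 arrays of the series: 3 of pil5 whose last light was far-red and 3 of Col-0 whose last light was red, chosen by array title and joined by biological replicate number. Col-0 is the wild type, and pil5 carries the Salk_072677 insertion, so the mutant is represented by 1 line. Both groups were imbibed seeds of Arabidopsis thaliana on aqueous medium that first received a far-red pulse of 5 min at 3.2 umol per square metre and second. The Col-0 red group then received a red pulse of 5 min at 13 umol per square metre and second, the pil5 dark group did not, and both were kept in the dark for 12 h before RNA was taken. Genotype and light therefore differ together in this comparison, and what it measures is the distance between the pil5 state without red and the wild-type state after red. No array of Col-0 after far-red alone enters it.

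PIL5, also called PIF1, is a basic helix-loop-helix transcription factor that binds phytochrome and holds back seed germination in the dark. Far-red light turns phytochrome B to its inactive form and red light turns it to the active form, which enters the nucleus and leads to the breakdown of PIL5. In wild-type seeds this release changes gibberellin and abscisic acid metabolism and response, and pil5 seeds germinate without a red pulse. The question of the comparison was in which transcripts the loss of PIL5 alone lies below, matches or lies above the level that a red pulse gives the wild type.

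Values are log2 signals of Affymetrix probe sets, 1 array per sample. Array medians ran from 6.081 to 6.278 over the 6 arrays, and arrays of a group correlated at r between 0.982 and 0.997. Arrays of number 3 stood apart from those of numbers 1 and 2: the 69 probe sets of plastid-encoded genes had medians of 7.51 and 7.36 in Col-0 red 3 and pil5 dark 3, against 8.68 to 9.11 in the other 4 arrays. The deviations of the arrays from their group means correlated at r = 0.677, 0.472 and 0.684 between pil5 dark and Col-0 red of the same number, and at r from -0.677 to 0.376 between different numbers. Deviations within a group of 3 arrays cancel out, so the values between different numbers are partly fixed by those of the same number. The seed label was checked with 17 measured genes of late embryogenesis abundant (LEA) proteins, which had median levels of 11.27 in pil5 dark and 11.01 in Col-0 red. BAN (AT1G61720), an anthocyanidin reductase gene that marks the seed coat, read 4.59 and 4.45, near the lower quartiles of the arrays, and 7 measured photosystem genes had medians of 5.99 and 6.72. Storage protein and oleosin genes were not analysed here. No probe set was tied to PIL5, so its transcript was not checked, and genome positions are not given. In whole seeds, fewer cells of a type and less RNA per cell cannot be told apart.

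Most probe sets, whether or not they respond to red, lay within 2-fold between pil5 dark and Col-0 red. Of 22746 probe sets, 21795 (95.8%) had a 95% interval of the difference that stayed within 2-fold, between -1 and 1 on the log2 scale. With a margin of 1.5-fold the count was 19226, and without the replicate number in the fit 20582 stayed within 2-fold. These counts cover all probe sets, dim ones included, and were not limited to transcripts that respond to red. No Col-0 dark array enters them, so they do not say how much of the red response pil5 seeds share. The paired fit called 2778 probe sets (12.2%) at an adjusted p below 0.05, and 1977 of these also had an interval within 2-fold, so most called differences were small. In pil5 dark, 1203 probe sets (5.29%) were higher and 1575 (6.92%) lower than in Col-0 red. With each array centred on its median, the split was 1386 higher and 1177 lower, so which direction had more calls depended on the scaling, while quantile normalization gave 1256 higher and 1503 lower. At least 2-fold differences were called for 374 probe sets (1.64%), 160 higher (0.703%) and 214 lower (0.941%), and for 155 the whole interval lay beyond 2-fold. Another 150 probe sets were neither called nor shown to be within 2-fold. In 3843 probe sets (16.9%) the groups of 3 arrays did not overlap, in either direction. Genes named below as the highest or lowest with a symbol had to meet this condition. For them a lack of overlap is therefore no added support. All differences below are pil5 dark minus Col-0 red on the log2 scale, with the standard error (SE) of the fit over 3 pairs of arrays, and a gene is called where the adjusted p of limma is below 0.05.

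The calls rest on the pairing. Without the replicate number as a block, the same 6 arrays gave 3 calls in limma, all lower, and 2746 probe sets had an unadjusted p under 0.05. The calls of all 80 named probe sets were lost in that fit (adjusted p from 0.0523 to 0.804). The 3 calls were of probe sets that the annotation ties to no gene. With all 12 arrays in the fit and the block kept, 1759 probe sets were called, of which 1630 were among the 2778. Without the pair of number 1, 2 or 3 the count was 1082, 726 or 4016. The pairs differed in how the large differences fell: at least 2-fold differences were 203 higher and 197 lower in number 1, 278 and 207 in number 2, and 156 and 470 in number 3.

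**Figure D1:**
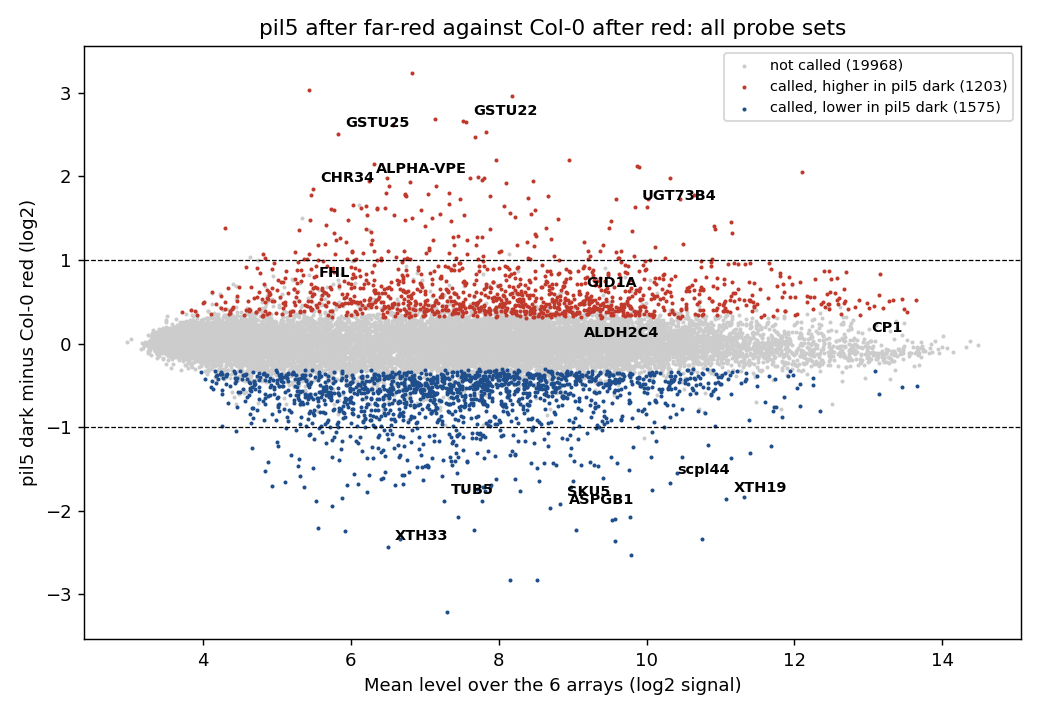
Difference between pil5 dark and Col-0 red (log2, vertical axis) against the mean level over the 6 arrays (log2 signal, horizontal axis), 1 point per probe set, with 2-fold marked by dashed lines. The 1203 probe sets called higher and 1575 called lower are spread over most of the range of levels, and most lie inside the dashed lines; GSTU22, GSTU25 and XTH33 are among those far outside.

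Genes of light and hormone response split into those that read alike in both states and those that did not. FHL (AT5G02200), which takes part in nuclear import of phytochrome A, read 5.21, 5.04 and 5.06 in Col-0 red and 6.13, 6.0 and 5.33 in pil5 dark. The pil5 values were all above the Col-0 values, and the difference was 0.72 (SE 0.14, adjusted p = 0.0258). HYH (AT3G17609), a bZIP factor related to HY5 and the other measured gene of 20 light signalling entries, had 0.36 (SE 0.19, adjusted p = 0.313). Of 5 measured genes of gibberellin perception (10 entries; the measured members hold no DELLA gene), 1 was higher, 0 were lower and all 5 had an interval within 2-fold. Over all 13350 measured genes, with 1 probe set each, 4.64% were higher, 5.87% lower and 96.5% within 2-fold, with a median difference of 0.011. Each group below is to be read against these shares. Groups given without a number of entries were found by symbol, so their measured members are only genes with a symbol. Such genes were called more often: 252 of 1580 probe sets with a symbol, against 1416 of all 13513 tied to 1 gene. The receptor gene GID1A (AT3G05120) read 8.76, 8.87 and 8.75 in Col-0 red and 9.28, 9.64 and 9.23 in pil5 dark. The groups did not overlap, with a difference of 0.59 (SE 0.091, adjusted p = 0.0114). The receptor gene GID1C (AT5G27320) read 5.75, 6.11 and 5.69 in Col-0 red and 5.86, 6.07 and 5.75 in pil5 dark, and the groups overlapped. Its difference was 0.043 with an interval of -0.15 to 0.23. GID1B (AT3G63010) had an interval of -0.28 to 0.19 at low signal, and SLY1 (AT4G24210), the F-box gene of DELLA turnover, one of -0.0033 to 0.38. SLY2 (AT5G48170), the paralogue of SLY1, had -0.45 (SE 0.12, adjusted p = 0.0588). Genes of gibberellin synthesis were not analysed here.

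On the abscisic acid side, XERICO (AT2G04240), a RING protein gene that promotes accumulation of the hormone, was higher in pil5 dark. It read 8.35, 8.55 and 8.65 in Col-0 red and 8.85, 9.16 and 9.09 in pil5 dark, without overlap, and the difference was 0.52 (SE 0.080, adjusted p = 0.0114). A drought- and abscisic acid-induced linker histone gene, HIS1-3 (AT2G18050), read 6.54, 7.29 and 6.63 in Col-0 red and 7.55, 8.10 and 7.23 in pil5 dark. It was higher in pil5 in every pair, and the groups overlapped slightly, both arrays of number 2 being the highest of their group, with 0.80 (SE 0.10, adjusted p = 0.00636). AGL67 (AT1G77950), a MADS-box gene of the seed programme, was lower in pil5 by the same test, with -0.81 (SE 0.18, adjusted p = 0.0364), and read 7.94, 8.77 and 8.67 in Col-0 red and 7.53, 8.16 and 7.27 in pil5 dark. EEL (AT2G41070), a bZIP factor of late embryo development, was not called, with -0.65 (SE 0.17, adjusted p = 0.059). SPT (AT4G36930), the bHLH factor SPATULA that acts in dormancy and germination, was lower with -0.67 (SE 0.14, adjusted p = 0.0265). IAA30 (AT3G62100), an Aux/IAA gene of the embryo programme, read 4.84, 4.63 and 4.35 in Col-0 red and 4.56, 4.72 and 4.34 in pil5 dark. Its interval was -0.30 to 0.17 at low signal. In all, 2 of 5 measured seed regulators (17 entries) were lower, 1 was higher and 2 were not called. The calls of FHL, GID1A, XERICO and SPT ended without number 1 (adjusted p from 0.0517 to 0.12), and those of these 4 genes and AGL67 without number 2 (0.0822 to 0.14). With all 12 arrays and the block, XERICO, AGL67 and HIS1-3 were not called (0.218 to 0.418), AGL67 was not called by eBayes with trend and robust (0.0536), and SPT not with quantile normalization (0.0519).

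For orientation, mean levels of Col-0 after far-red alone can be set beside these values, though they take no part in the fit and no test was made with them. They were 12.08 for ALDH2C4 (AT3G24503), whose enzyme makes ferulic and sinapic acids, against 9.05 in Col-0 red and 9.05 in pil5 dark. The interval of the difference between the latter was -0.30 to 0.29. CP1 (AT4G36880), a cysteine proteinase gene, stood at 10.52 after far-red, 12.92 after red and 12.97 in pil5 dark, with an interval of -0.15 to 0.25. CIL (AT4G25990), a CCT-domain gene, stood at 7.37, 9.21 and 9.01, with an interval of -0.48 to 0.071. In these 3 genes, and in IAA30 and GID1C, the pil5 dark level was thus shown to lie within 2-fold of the red level. IAA30 read near the lower quartiles of the arrays in both groups, where a difference is hard to see. FHL stood at 10.00, 5.10 and 5.82 in the same order, and GID1A at 10.58, 8.79 and 9.38, so both pil5 levels lay between the wild-type levels. AGL67 stood at 10.34, 8.46 and 7.65, where pil5 dark lay on the far side of the red level. XTH33, described below, stood at 5.77, 7.71 and 5.28, where pil5 dark lay near the far-red level. These genes came to notice in earlier comparisons that used the Col-0 red or the pil5 dark arrays, so the pattern is a description.

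**Figure D2:**
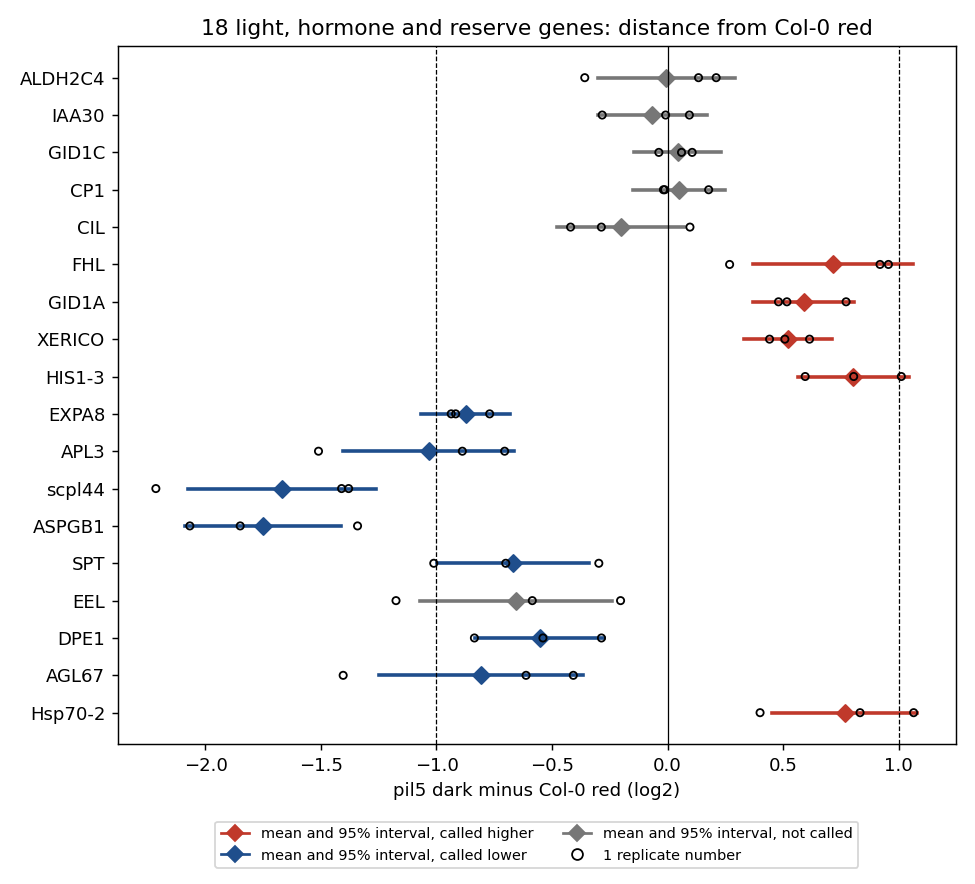
Difference between pil5 dark and Col-0 red (log2, horizontal axis) for 18 genes, with the mean and its 95% interval as a diamond and bar and each pair of arrays as an open circle; dashed lines mark 2-fold and the solid line no difference. ALDH2C4, IAA30, GID1C, CP1 and CIL have intervals that include 0 and stay within 2-fold, while scpl44 and ASPGB1 have intervals wholly below -1.

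Of the cell wall families measured, a minority of the xyloglucan hydrolases and expansins were lower in pil5 dark. Of 10 measured xyloglucan endotransglucosylase/hydrolase genes, whose products cut and rejoin xyloglucan, 3 were lower and 0 higher. XTH33 (AT1G10550) read 8.38, 7.83 and 6.93 in Col-0 red and 5.77, 5.04 and 5.02 in pil5 dark. The difference was -2.43 (SE 0.17, adjusted p = 0.0016), the lowest of any called gene with a symbol. Its groups did not overlap, which was a condition for naming the lowest genes. XTH19 (AT4G30290) read 12.43, 12.22 and 11.38 in Col-0 red and 11.57, 10.27 and 8.60 in pil5 dark. The arrays of number 3 were the lowest in both groups, the groups overlapped, and the difference was -1.87 (SE 0.32, adjusted p = 0.015). XTH16 (AT3G23730) had -1.04 (SE 0.14). The group had a median of -0.11, and the other 7 members had intervals within 2-fold. Of 18 measured expansins, which loosen cell walls, 5 were lower and 0 higher, with a median of -0.067. EXPA4 (AT2G39700) read 7.72, 7.25 and 6.73 in Col-0 red and 6.52, 5.84 and 4.74 in pil5 dark, with a difference of -1.54 (SE 0.15, adjusted p = 0.00341). EXPA9 (AT5G02260) had -1.21 (SE 0.28), EXPA15 (AT2G03090) -0.99 (SE 0.13), EXPA8 (AT2G40610) -0.87 (SE 0.081) and EXPB1 (AT2G20750) -0.48 (SE 0.099). EXPA8 read 12.45, 12.38 and 11.97 in Col-0 red and 11.68, 11.44 and 11.06 in pil5 dark, and every pil5 value lay below every Col-0 value.

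Of 7 measured genes of the cellulose synthase-like group, 4 were lower and 0 higher, with a median of -0.47. All 4 were of the CSLC branch, which holds the xyloglucan glucan synthases. CSLC04 (AT3G28180) read 9.48, 9.49 and 9.02 in Col-0 red and 8.89, 8.08 and 6.74 in pil5 dark, with a difference of -1.43 (SE 0.28, adjusted p = 0.0234). Its lowest value by far was that of pil5 dark 3. CSLC6 had -0.94 (SE 0.13), CSLC5 -0.57 (SE 0.082) and CSLC12 -0.47 (SE 0.078), and CSLC12 read near the lower quartile of the arrays in both groups. The 3 members not called were CSLA01, CSLA03 and CSLD2. SKU5 (AT4G12420), a multicopper oxidase-like protein of the cell wall and plasma membrane that acts in directional growth, read 10.16, 9.84 and 9.36 in Col-0 red and 8.72, 7.84 and 7.06 in pil5 dark, with -1.91 (SE 0.16, adjusted p = 0.0023). Among the wall genes named here, the calls of EXPB1, CSLC5 and CSLC12 ended without number 1 (adjusted p from 0.0525 to 0.119), and those of EXPB1, CSLC5, CSLC12, CSLC04, EXPA9 and XTH19 without number 2 (0.057 to 0.13). XTH19, XTH16, EXPA8, EXPA9, EXPA15 and EXPB1 were not called with all 12 arrays and the block (0.0596 to 0.351), and CSLC04, EXPA9 and XTH19 not by eBayes with trend and robust (0.114 to 0.161).

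Of 7 measured tubulins, the subunits of microtubules, 4 were lower and 0 higher, with a median of -0.695. TUB5 (AT1G20010) read 8.97, 8.24 and 7.39 in Col-0 red and 7.43, 6.42 and 5.10 in pil5 dark. Each pil5 array lay below the Col-0 array of its number, although pil5 dark 1 was slightly above Col-0 red 3, and the difference was -1.88 (SE 0.14, adjusted p = 0.00206). TUB1 had -0.92 (SE 0.17), TUA6 -0.69 (SE 0.13) and TUB7 -0.68 (SE 0.15). TUB9 (AT4G20890) read 10.63, 10.58 and 10.50 in Col-0 red and 10.56, 10.56 and 10.40 in pil5 dark and had an interval of -0.25 to 0.12, so this tubulin lay within 2-fold of the red level. TUB6 had -0.76 (SE 0.28, adjusted p = 0.151) and TUA1 0.28 (SE 0.099, adjusted p = 0.128). ACT11 (AT3G12110), an actin gene, read 6.29, 5.56 and 6.46 in Col-0 red and 4.82, 4.50 and 4.25, at low signal, in pil5 dark. It had -1.58 (SE 0.20, adjusted p = 0.00669), without overlap, as the rule for the lowest genes required. PRL (AT4G02060), which encodes the replication licensing factor PROLIFERA of the MCM family, was the single replication gene named, and read 7.33, 6.82 and 6.23 in Col-0 red and 5.88, 5.08 and 4.33 in pil5 dark, with -1.70 (SE 0.11, adjusted p = 0.00133). TUA6 and TUB7 were not called without number 2 (adjusted p 0.08 and 0.108), and TUA6 not with all 12 arrays and the block (0.069).

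**Figure D3:**
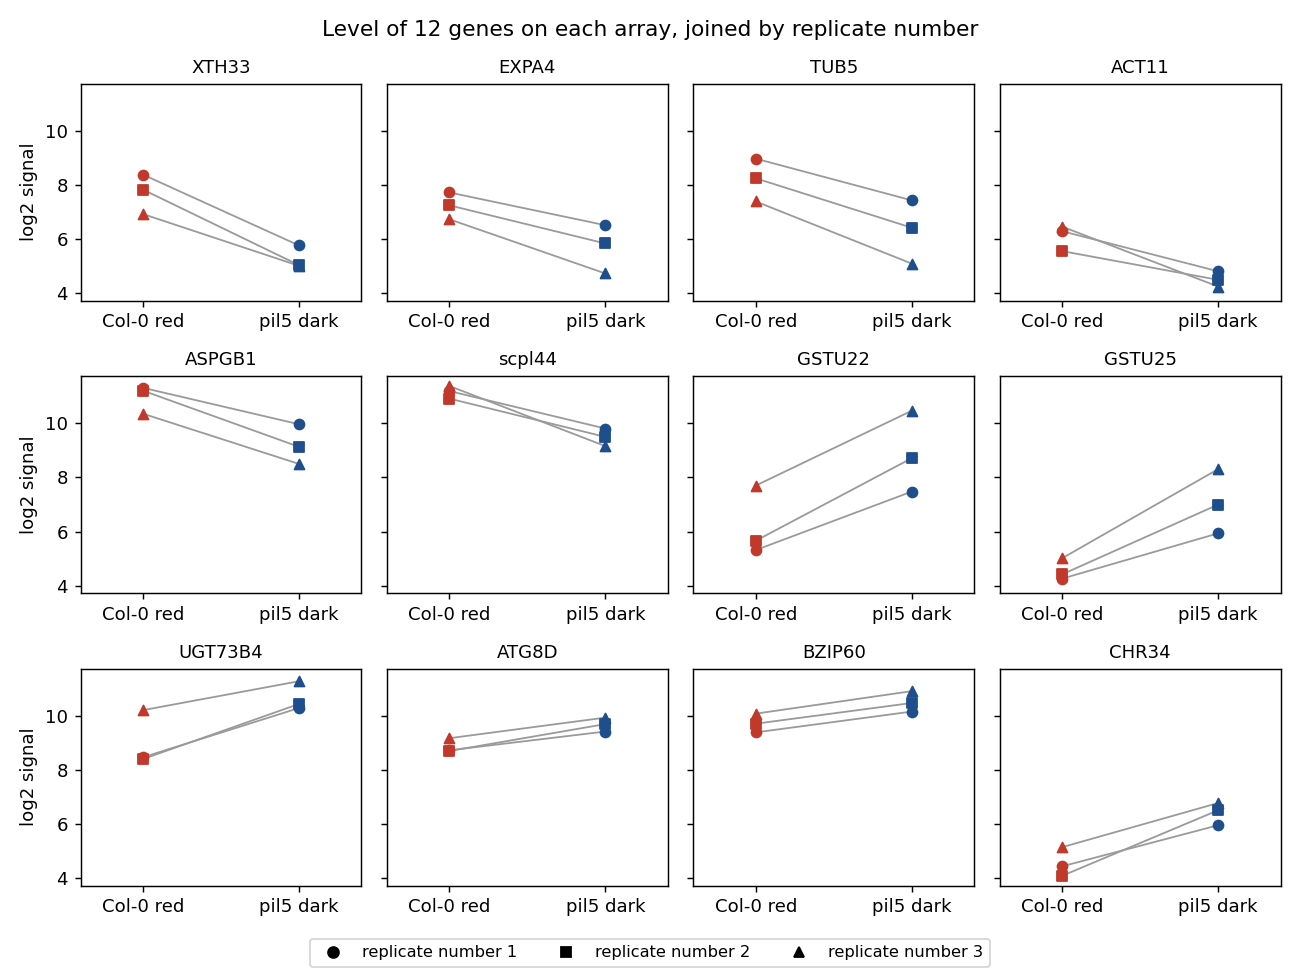
Log2 signal of 12 genes (vertical axis, 1 panel per gene) on each of the 6 arrays, Col-0 red at left and pil5 dark at right of each panel, with arrays of the same replicate number joined by a line. The lines run down in every pair for XTH33, EXPA4, TUB5, ACT11, ASPGB1 and scpl44 and up in every pair for GSTU22, GSTU25, UGT73B4, ATG8D, BZIP60 and CHR34.

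Several enzymes of nitrogen, protein and starch metabolism were lower in pil5 dark. ASPGB1 (AT3G16150), an asparaginase, read 11.30, 11.20 and 10.35 in Col-0 red and 9.96, 9.13 and 8.50 in pil5 dark. The groups did not overlap, as the rule for the lowest genes required, with -1.75 (SE 0.14, adjusted p = 0.00226). Of 29 measured serine carboxypeptidase-like genes, vacuolar or secreted peptidases and acyltransferases, 8 were lower and 0 higher, while the group median was -0.10. scpl44 (AT1G43780) read 11.18, 10.90 and 11.37 in Col-0 red and 9.80, 9.49 and 9.15 in pil5 dark, with -1.67 (SE 0.17, adjusted p = 0.0036). scpl48 (AT3G45010) read 10.51, 10.12 and 8.86 in Col-0 red and 9.82, 8.80 and 5.94 in pil5 dark, so that the groups overlapped and the pair of number 3 differed most, and had -1.64 (SE 0.38, adjusted p = 0.0365). scpl42 had -0.96 (SE 0.14), scpl25 -0.83 (SE 0.10), scpl29 -0.81 (SE 0.089) and scpl50 -0.77 (SE 0.082), whereas SCPL49 had an interval of -0.15 to 0.22. SBT1.3 (AT5G51750), a subtilisin-like protease, read 9.32, 8.32 and 8.58 in Col-0 red and 8.05, 6.84 and 6.17 in pil5 dark, with -1.72 (SE 0.21, adjusted p = 0.00586).

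APL3 (AT4G39210), a large subunit of the starch synthesis enzyme ADP-glucose pyrophosphorylase, read 7.20, 6.96 and 6.72 in Col-0 red and 6.31, 6.26 and 5.21 in pil5 dark and was lower by the test, with -1.03 (SE 0.15, adjusted p = 0.0105). DPE1 (AT5G64860), which acts on maltotriose when starch is broken down in plastids, had -0.55 (SE 0.12, adjusted p = 0.0281). ALPHA-VPE (AT2G25940), a vacuolar processing enzyme, went the other way: it read 5.10, 5.02 and 5.69 in Col-0 red and 7.40, 7.58 and 6.68 in pil5 dark, with 1.95 (SE 0.28, adjusted p = 0.00939). The 3 measured genes of storage lipid mobilisation (18 entries) were all within 2-fold and none was called. ICL (AT3G21720), the isocitrate lyase of the glyoxylate cycle, read 14.34, 14.41 and 14.36 in Col-0 red and 14.38, 14.43 and 14.37 in pil5 dark, at the upper end of the array, with an interval of -0.15 to 0.21. SDP1 (AT5G04040), a triacylglycerol lipase, had an interval of -0.13 to 0.24, and AIM1 (AT4G29010), of beta-oxidation, one of -0.16 to 0.31. Without number 2, DPE1 and scpl48 were not called (adjusted p 0.104 and 0.151). With all 12 arrays and the block, scpl44, APL3, DPE1, scpl48, scpl25 and scpl29 were not called (0.0731 to 0.27), and scpl48 not by eBayes with trend and robust (0.196).

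Other lower genes included enzymes of redox repair and of secondary metabolism. MSRB5 (AT4G04830) and MSRB9 (AT4G21850) are methionine sulfoxide reductases, which repair oxidised methionine. MSRB9 read 6.96, 6.77 and 7.35 in Col-0 red and 5.57, 5.26 and 5.55 in pil5 dark, with -1.57 (SE 0.10, adjusted p = 0.00133). MSRB5 read 7.52, 7.24 and 5.38 in Col-0 red and 4.76, 4.89 and 4.65 in pil5 dark, and its difference of -1.95 (SE 0.35) was smallest in number 3. ATLP-1 (AT1G18250), a thaumatin-like gene, read 7.02, 6.20 and 6.19 in Col-0 red and 5.04, 4.40 and 4.31 in pil5 dark, with -1.88 (SE 0.081, adjusted p = 0.000603). Of 20 measured beta-glucosidases, 3 were lower and 1 higher, with a median of -0.016 that turned to 0.042 with centred arrays and 0.0041 without number 1. BGLU28 (AT2G44460) had -1.39 (SE 0.20), BGLU42 -0.57 (SE 0.085) and BGLU44 -0.48 (SE 0.089), and BGLU25 (AT3G03640) was higher, with 0.92 (SE 0.12). Of 8 measured aldehyde dehydrogenases, 3 were lower and 0 higher, with a median of -0.205. ALDH11A3 (AT2G24270), a non-phosphorylating glyceraldehyde-3-phosphate dehydrogenase, read 8.59, 8.09 and 6.65 in Col-0 red and 7.03, 6.55 and 5.63 in pil5 dark, with -1.37 (SE 0.12, adjusted p = 0.0028). ALDH3F1 had -0.96 (SE 0.075) and ALDH10A8 -0.38 (SE 0.095), while ALDH2C4 read alike in both groups. DRT100 (AT3G12610) had -1.69 (SE 0.25) and ZW9 (AT1G58270) -1.46 (SE 0.13). Of 22 measured cytochrome P450 genes, 2 were lower and 2 higher, with a median of 0.044 that turned to -0.0074 without the dimmest 25% of probe sets. The lower members were CYP71B34, with -0.78 (SE 0.089), and CYP71B37, with -0.57 (SE 0.098), and the higher ones CYP71B5, with 0.74 (SE 0.18), and CYP71B29, with 0.34 (SE 0.082). MSRB5, BGLU42, BGLU44, CYP71B5, CYP71B29 and ALDH10A8 were not called without number 1 or without number 2, and CYP71B37 not without number 1 (adjusted p from 0.0508 to 0.222). ALDH10A8 was also not called without number 3 (0.056) or with centred arrays (0.0757), MSRB5 and CYP71B5 not by eBayes with trend and robust (0.0721 and 0.104), and BGLU42, BGLU44, the 4 P450 genes and ALDH10A8 not with all 12 arrays and the block (0.0635 to 0.203).

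Genes of detoxification were among the highest in pil5 dark relative to Col-0 red. GSTU22 (AT1G78340) and GSTU25 (AT1G17180) encode tau-class glutathione transferases, which join glutathione to reactive compounds. GSTU22 read 5.32, 5.67 and 7.70 in Col-0 red and 7.48, 8.71 and 10.46 in pil5 dark. Both arrays of number 3 read high, so pil5 dark 1 lay below Col-0 red 3, but within each number pil5 was higher, with 2.65 (SE 0.16, adjusted p = 0.00133). GSTU25 read 4.27, 4.43 and 5.02 in Col-0 red, at low signal, and 5.94, 7.0 and 8.31 in pil5 dark. It had 2.51 (SE 0.27, adjusted p = 0.00423), without overlap, as the rule for the highest genes required. Of 13 measured glutathione transferases 3 were higher and 2 lower. The median of 0.10 turned to -0.014 without number 3, and to -0.040 and -0.16 without the dimmest 25% and 50% of probe sets. GSTU18 (AT1G10360) was the third higher member, with 0.49 (SE 0.12) at low signal. GSTU27 (AT3G43800) was lower: it read 7.83, 7.56 and 7.45 in Col-0 red and 6.18, 6.10 and 6.54 in pil5 dark, with -1.34 (SE 0.14, adjusted p = 0.00431), and GSTU26 had -0.64 (SE 0.16). Members of this family thus went both ways.

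The glucosyltransferases UGT73B4 (AT2G15490) and UGT73B5 (AT2G15480), which attach glucose to small molecules and are induced by several stresses, were higher. UGT73B4 read 8.47, 8.40 and 10.20 in Col-0 red and 10.28, 10.43 and 11.27 in pil5 dark, with 1.64 (SE 0.18, adjusted p = 0.0044). UGT73B5 read 4.86, 4.64 and 5.43 in Col-0 red and 5.73, 6.35 and 7.64 in pil5 dark, with 1.60 (SE 0.23, adjusted p = 0.00925), and the related UGT73C1 (AT2G36750) had 0.90 (SE 0.18). Of these genes, GSTU26 was not called without number 1 (adjusted p = 0.165) or with quantile normalization (0.0748), and UGT73B5, UGT73C1 and GSTU18 were not called without number 2 (0.052 to 0.234). GSTU26 and GSTU18 were not called with all 12 arrays and the block (0.0674 to 0.0962).

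The next genes, other than the heat shock genes, were named for being among the 15 highest called genes with a symbol and groups that did not overlap. STZ (AT1G27730), a zinc finger repressor of the stress response, read 4.89, 4.86 and 6.92 in Col-0 red and 6.95, 7.13 and 7.41 in pil5 dark. The pair of number 3 differed least, the groups did not overlap, and the difference was 1.61 (SE 0.32, adjusted p = 0.0245). BZIP60 (AT1G42990), a transcription factor of the unfolded protein response, read 9.38, 9.70 and 10.07 in Col-0 red and 10.15, 10.47 and 10.90 in pil5 dark, with nearly equal differences in the 3 pairs and 0.79 (SE 0.076, adjusted p = 0.00319). Of 3 measured heat shock genes (15 entries), 2 were higher and 0 lower: ATHSP22.0 (AT4G10250), a small heat shock protein of the endoplasmic reticulum, with 1.12 (SE 0.12), and the chaperone gene Hsp70-2 (AT5G02490), with 0.77 (SE 0.13). The small heat shock protein gene AT1G53540 read 9.02, 9.33 and 10.92 in Col-0 red and 8.67, 9.39 and 10.87 in pil5 dark and had an interval of -0.36 to 0.13. SAY1 (AT4G11740) read 9.0, 9.13 and 9.77 in Col-0 red and 10.06, 10.37 and 10.63 in pil5 dark, with 1.05 (SE 0.097, adjusted p = 0.00293).

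CHR34 (AT2G21450), a chromatin remodelling gene of the SNF2 family, read 4.45, 4.1 and 5.15 in Col-0 red and 5.96, 6.51 and 6.78 in pil5 dark. The Col-0 red signal was low. The groups did not overlap, as the rule for the highest genes required, with 1.85 (SE 0.17, adjusted p = 0.003). IQD23 (AT5G62070), of a family of calmodulin-binding proteins, had 1.62 (SE 0.29), ChiC (AT4G19810), a class V chitinase, 1.21 (SE 0.17), TET5 (AT4G23410), a tetraspanin, 0.77 (SE 0.089) and SNF7.1 (AT4G29160), a subunit of the endosomal sorting complex ESCRT-III, 0.77 (SE 0.076). IQD23, STZ and Hsp70-2 were not called without number 1 (adjusted p from 0.0647 to 0.0942) or without number 2 (0.0842 to 0.111). IQD23 and STZ were also not called by eBayes with trend and robust (0.0691 and 0.109), and ATHSP22.0 and Hsp70-2 not with all 12 arrays and the block (0.0962 and 0.172).

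Of 8 measured autophagy genes 4 were higher in pil5 dark and 0 lower, with a median of 0.48. The ATG8 proteins are ubiquitin-like and are attached to the membrane of the forming autophagosome. ATG8D (AT2G05630) read 8.72, 8.70 and 9.17 in Col-0 red and 9.41, 9.69 and 9.93 in pil5 dark. It had 0.81 (SE 0.091, adjusted p = 0.00472), without overlap, as the rule for the highest genes required. ATG8B (AT4G04620) read 9.54, 9.77 and 10.02 in Col-0 red and 10.02, 10.40 and 10.66 in pil5 dark, where pil5 dark 1 lay just above Col-0 red 3, and had 0.59 (SE 0.080, adjusted p = 0.00825). ATG8H (AT3G06420) read 5.99, 6.54 and 8.22 in Col-0 red and 7.12, 7.99 and 8.69 in pil5 dark, with both arrays of number 3 high, and had 1.02 (SE 0.18, adjusted p = 0.0159). ATG8E (AT2G45170) had 0.88 (SE 0.15, adjusted p = 0.0167). ATG8C, ATG8F and ATG8G were not called, with 0.38 (SE 0.10), 0.27 (SE 0.098) and 0.14 (SE 0.076), and all 3 had intervals within 2-fold. The eighth member was ATG3, the conjugating enzyme, at 0.19 (SE 0.078). ATG8H was not called without number 1 (adjusted p = 0.0669), and ATG8H and ATG8B were not called without number 2 (0.0671 and 0.0721).

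Of 17 measured LEA genes (25 entries), whose products protect dry seeds, 2 were higher, 0 lower and 16 had an interval within 2-fold, with a median of 0.12. The share within 2-fold was near that over all genes. By number the median was 0.445, 0.26 and -0.26, so number 3 went against the others, and the median was -0.065 without number 1 and -0.0090 without number 2. AT3G53040 read 9.69, 10.12 and 10.82 in Col-0 red and 11.63, 11.94 and 11.26 in pil5 dark, without overlap, and had 1.4 (SE 0.28, adjusted p = 0.024). AT4G36600 had 0.53 (SE 0.082, adjusted p = 0.0114). LEA4-5 read 11.37, 11.92 and 11.83 in Col-0 red and 12.22, 12.17 and 11.62 in pil5 dark and had 0.30 (SE 0.19), and M17 had -0.28 (SE 0.077). Of 7 measured photosystem and light-harvesting genes (33 entries), 2 were lower, 0 higher and all 7 within 2-fold. PSBY (AT1G67740), of photosystem II, read 6.77, 6.53 and 6.87 in Col-0 red and 6.18, 5.76 and 6.03 in pil5 dark, with -0.73 (SE 0.086, adjusted p = 0.00536), and the antenna gene LHCB4.1 (AT5G01530) had -0.43 (SE 0.093). HEMA2 (AT1G09940) and PORB (AT4G27440), of chlorophyll synthesis (12 entries, 2 measured), were not called and lay within 2-fold. EIN3 (AT3G20770), the transcription factor of ethylene response, had an interval of 0.0039 to 0.46.

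Of 11 measured Aux/IAA and GH3 genes of auxin response, 1 was higher and 1 lower, with a median of 0.072. IAA18 had 0.43 (SE 0.089) and GH3.17, an enzyme that joins auxin to amino acids, -0.33 (SE 0.076). The calls of AT3G53040, AT4G36600, LHCB4.1, IAA18 and GH3.17 ended without number 1 (adjusted p from 0.0663 to 0.225) and without number 2 (0.0903 to 0.208), while PSBY stayed called with any 1 number left out. AT4G36600, LHCB4.1 and GH3.17 were not called with all 12 arrays and the block (0.078 to 0.534), AT3G53040 not by eBayes with trend and robust (0.121), and GH3.17 not with centred arrays (0.113). Of the 69 probe sets of plastid-encoded genes 1 was higher and 3 were lower, with a median of -0.068. By number the median was 0.233, -0.214 and -0.315, so number 1 went against the others.

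**Figure D4:**
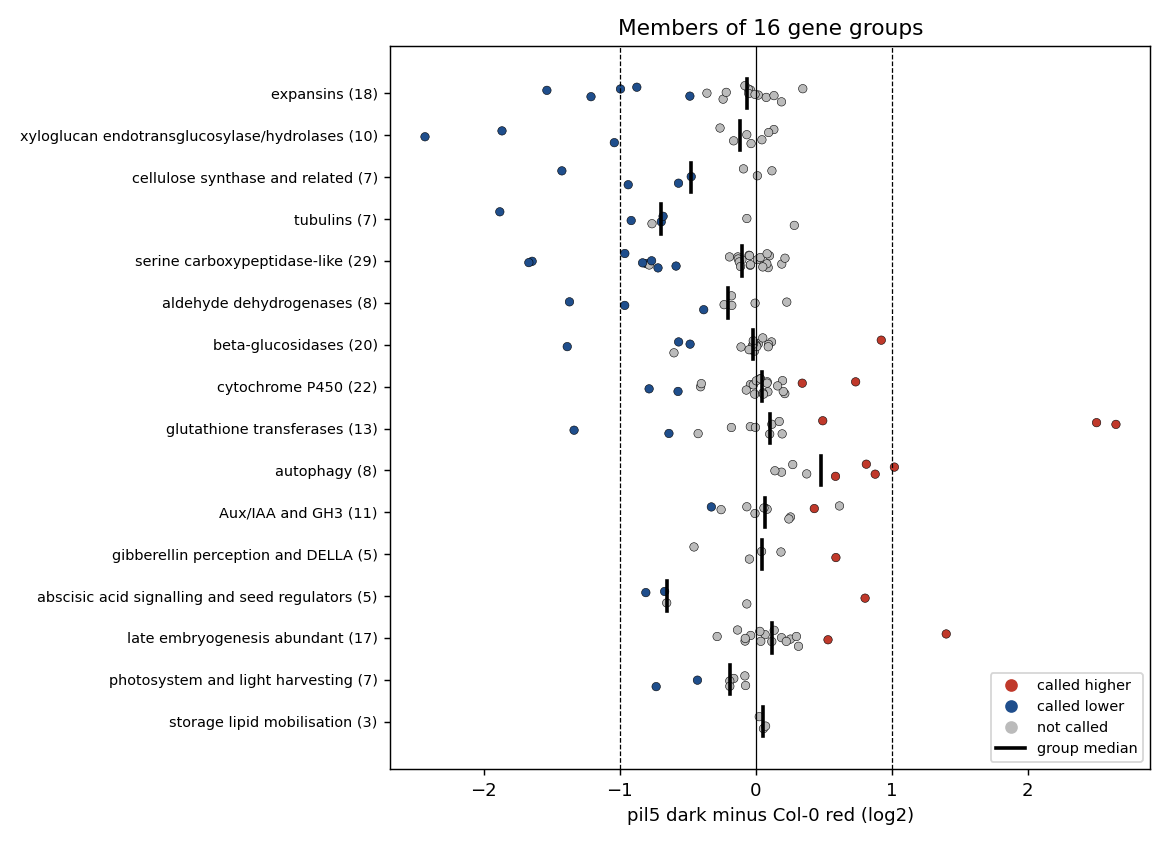
Difference between pil5 dark and Col-0 red (log2, horizontal axis) of each measured member of 16 gene groups (vertical axis, number of members in brackets), coloured by the call, with the group median as a black bar and 2-fold as dashed lines. The called members of the expansin, xyloglucan hydrolase, cellulose synthase-like, tubulin and carboxypeptidase groups all lie below 0. Those of the autophagy group lie above 0, while glutathione transferases were called on both sides. The group labelled cellulose synthase and related holds only cellulose synthase-like genes.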

How the data were processed

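RNA levels were measured in imbibed seeds, each sample on 1 Affymetrix array hybridised with biotinylated cRNA, per the labels' protocols. The deposited table holds log2 signals; their array quantiles are nearly equal, so the authors' values appear normalized across arrays. MAS5 5.0 and RMA are named, per the submitters' processing notes, without their roles. Values were used as deposited, unfiltered, less 64 controls. The supplied annotation ties 13513 of the 22746 probe sets to 1 gene, 503 to several and 8730 to none, and 1580 have a symbol beyond the locus tag, taken from RefSeq (TAIR10.1). Groups follow the array titles.

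The 6 arrays were fitted in limma 3.58.1 (R 4.3.3) with group and replicate number, and tested two-sided with eBayes, with neither trend nor robust; p-values were adjusted over 22746 probe sets by the Benjamini-Hochberg method. This left 2 residual and 4.54 prior degrees of freedom. The pairing comes from the definition of the comparison. The labels call the samples biological replicates but do not say what a number stands for or whether seed batches were separate. With the block, p-values measure the spread of the 3 paired differences and not the spread between samples of a group. The 3 correlations within numbers are given above. Leaving out 1 array of a paired fit leaves out its pair, so pairs were left out whole. A gene with several probe sets was represented in the gene groups by the brightest. The fit was checked by a run on simulated data.

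The members and lists were chosen with earlier results of these data known, and 3 lists hold genes named in earlier comparisons of these arrays. Named genes were the 15 highest and 15 lowest called genes with a symbol and groups that did not overlap, all measured light and hormone genes, up to 6 members of each other list, and the 6 narrowest intervals. GSTU22, XTH19 and TUB5 are named as list members, since their groups overlap. Of 132 named probe sets 80 were called. Lists whose symbol pattern or loci found 0 members, such as aquaporins, cyclins and ribosomal proteins, are not described. This does not mean that such genes were absent: 7 genes with an RPL symbol and 8 with an RPS symbol were measured. Lists were not tested. Promoter sequences were not analysed here. Alternatives were the block, all 12 arrays, quantile normalization, median centring, filters on dim probe sets, eBayes with trend and robust, 1 probe set per gene, pairs left out, a 2-fold minimum, and other margins and intervals. matplotlib 3.10.9 under Python 3.11.15 made the figures.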

Additional observations from a re-analysis of the deposited data

How the results depend on the processing

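The fit without the replicate block called 3 probe sets (0 higher, 3 lower) and 0 of the 64 listed genes called with it. All 12 arrays with the block gave 1759 (785 higher, 974 lower) and 36 listed genes, and all 12 without it 102 (32 higher, 70 lower) and 6 listed genes. One probe set per gene gave 1323 (579 higher, 744 lower), among 13350 tested, and a 2-fold minimum 374 (160 higher, 214 lower). With a pair left out the count ran from 726 to 4016, that of higher calls from 247 to 1943, of lower calls from 479 to 2073, and of listed genes from 34 to 86. Probe sets within 2-fold numbered 10643 of 11373 without the dimmest 50% and 12886 of 13350 with 1 probe set per gene, where fewer were tested. Quantile normalization, median centring, the 25% and 50% filters and eBayes with trend and robust kept the number of calls within 1.5 times. Group medians moved more, counted where they moved by over 1 SD of the medians by number. Of 20, 7 moved without the dimmest 25%, 4 with centring, 3 without number 1 and 3 without number 3. Without the dimmest 50%, 9 of 18 moved. None moved with quantile normalization or without number 2. In the other fits the differences are the same, so the medians could not move. Without the dimmest 50% the median was -1.45 for xyloglucan hydrolases, -0.87 for expansins and -0.78 for carboxypeptidases, where fewer members were tested, and with centring that of expansins was -0.0083. Of the 80 called named probe sets 79 stayed called without number 3, 56 without number 1, 46 without number 2, and 50 with all 12 arrays and the block. None changed sign with quantile normalization or centring. Under the other settings no sign could change. All called probe sets had the same sign in all 3 pairs, and the remaining fits return the same differences. Why the pairs differ was not tested. Dim probe sets limit what can be seen, and no detection calls were used. Some named genes with large differences read near the lower quartiles of the arrays in either Col-0 red or pil5 dark. Among them were GSTU25 and CHR34 in Col-0 red and ACT11 and BGLU28 in pil5 dark. The size of such differences is uncertain.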

Other observations

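Several other genes stood out after their values were seen, and their choice is not independent of these values. NAI2 (AT3G15950) and PYK10 (AT3G09260), which encode a protein needed to form endoplasmic reticulum bodies and the beta-glucosidase stored in them, were both lower in pil5 dark. NAI2 read 8.69, 7.94 and 6.86 in Col-0 red and 6.91, 5.97 and 3.60 in pil5 dark, with -2.34 (SE 0.27, adjusted p = 0.0051), and PYK10 read 10.55, 9.62 and 8.85 in Col-0 red and 9.01, 8.11 and 5.99 in pil5 dark, with -1.97 (SE 0.26, adjusted p = 0.00718). Both genes read lowest in pil5 dark 3, and for both genes the highest pil5 value lay above the lowest Col-0 value. Of 10 genes with a VPS symbol, components of vacuolar and endosomal sorting, 4 were higher and 1 lower: VPS60.1 had 0.61 (SE 0.12), VPS20.1 0.52 (SE 0.095), VPS60.2 0.47 (SE 0.077) and VPS2.1 0.40 (SE 0.083), and VPS2.2 had -0.65 (SE 0.10). Of 47 genes with a UGT symbol 7 were higher and 4 lower, with a median of 0.054. Of 5 genes with a CRR symbol, named for chlororespiratory reduction, 3 were lower: CRR28 had -0.76 (SE 0.10), CRR21 -0.60 (SE 0.11) and CRR42 -0.37 (SE 0.090).

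BZIP28 (AT3G10800), like BZIP60 a factor of the unfolded protein response, was higher with 0.63 (SE 0.11, adjusted p = 0.0148), and NDB2 (AT4G05020), an alternative NADH dehydrogenase of mitochondria, was higher with 1.18 (SE 0.12, adjusted p = 0.00342). The largest differences in each direction among probe sets tied to 1 gene belonged to loci without a symbol. AT3G10930 read 3.45, 3.60 and 4.69, at low signal, in Col-0 red and 6.21, 6.85 and 7.79 in pil5 dark. It had 3.04 (SE 0.11, adjusted p = 0.000603). AT5G45670 read 9.56, 8.57 and 8.60 in Col-0 red and 6.74, 5.28 and 5.05 in pil5 dark, with -3.22 (SE 0.14, adjusted p = 0.000603). In both loci the groups did not overlap. Without the block none of the genes in these paragraphs whose values are given was called (adjusted p from 0.0969 to 0.523). Without number 1 or number 2, or both, the calls of BZIP28, the 5 VPS genes, CRR21 and CRR42 ended (0.0519 to 0.207), CRR42, VPS60.2 and VPS20.1 were not called with all 12 arrays and the block (0.0638 to 0.24), CRR42 not with quantile normalization, centring or trend and robust (0.0564 to 0.0728), and PYK10 not with trend and robust (0.051).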
